A study of Mus musculus with 4 samples.

Results

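The transforming growth factor beta (TGF-beta) ligand gene Tgfb1, its receptors Tgfbr1, Tgfbr2, Tgfbr3 and Eng, the signal carriers Smad2, Smad3 and Smad4, the feedback inhibitor Smad7 and the Smad co-repressor Ski were chosen by gene symbol. All 10 were among the 47561 genes of the deposited tables, and all 10 were among the 13148 genes tested. RNA-seq was done on LSK cells, sorted from bone marrow as cells without lineage markers and with Sca-1 and c-Kit on the surface, of C57BL/6 mice aged 12 weeks. Metrn cKO mice carried the floxed Metrn gene together with LysM, the Lyz2 locus used to drive deletion in myeloid cells, and Metrn f/f mice carried the same floxed gene and are called wild type in the labels. LSK cells comprise hematopoietic stem cells and early progenitors. There were 2 sorted samples per genotype, each from its own mouse, and the series addressed the role of macrophage Meteorin, a secreted protein, in these cells. Deletion by LysM is aimed at macrophages, monocytes and neutrophils, so LSK cells were not its main target.

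TGF-beta is secreted in a latent form and, once released, binds the type II receptor TGFBR2, which recruits and phosphorylates the type I receptor TGFBR1. TGFBR3 (betaglycan) and endoglin, the product of Eng, are co-receptors that present ligand. The active type I receptor phosphorylates SMAD2 and SMAD3, which join SMAD4 and act in the nucleus, while SMAD7 blocks the receptor and SKI blocks the Smad complex. In the bone marrow the pathway is known for holding hematopoietic stem cells in quiescence, and endoglin is also a surface marker of these cells.

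Values were taken as FPKM, which are fragments per length of transcript and per size of library. The headers name no unit, so FPKM is inferred, and comparisons of level between genes rest on it. Summed FPKM ran between 392717 and 671802 per library, and 12175 to 12996 genes reached 1 FPKM. Read totals are unknown, so no counting error is given. The targeted gene Metrn had 42.3 and 36.7 FPKM in Metrn cKO libraries 1 and 2, against 29.3 and 66.3 FPKM in Metrn f/f libraries 1 and 2, and the ranges overlapped. The targeted gene therefore gave no check of the genotype labels, and an exchange of libraries between genotypes could not be checked with these values, which bears on every comparison of genotypes. Libraries of the same genotype differed widely in RNA of mature blood cells, and the 4 libraries split across genotype. All 10 neutrophil markers, all 12 macrophage and monocyte markers, all 10 B and plasma cell markers and 8 of 10 erythroid markers were higher in Metrn cKO 1 and Metrn f/f 2 than in Metrn cKO 2 and Metrn f/f 1. Of the 6 tested megakaryocyte and platelet markers, 2 had this order and 2 the reverse. Summed neutrophil markers came to 58488 and 2009 FPKM in Metrn cKO 1 and 2, against 2561 and 32594 FPKM in Metrn f/f 1 and 2. Summed macrophage and monocyte markers came to 237 and 68.3 FPKM in Metrn cKO 1 and 2, against 63.2 and 1068 FPKM in Metrn f/f 1 and 2. The sort marker Kit ran the other way, with 25.9 and 116 FPKM in Metrn cKO 1 and 2 and 108 and 24.8 FPKM in Metrn f/f 1 and 2. Ly6a, the gene of Sca-1, was highest in Metrn f/f 2, at 83.2 FPKM, against 37.2 in Metrn f/f 1 and 48.4 and 38.2 in Metrn cKO 1 and 2.

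**Figure D1:**
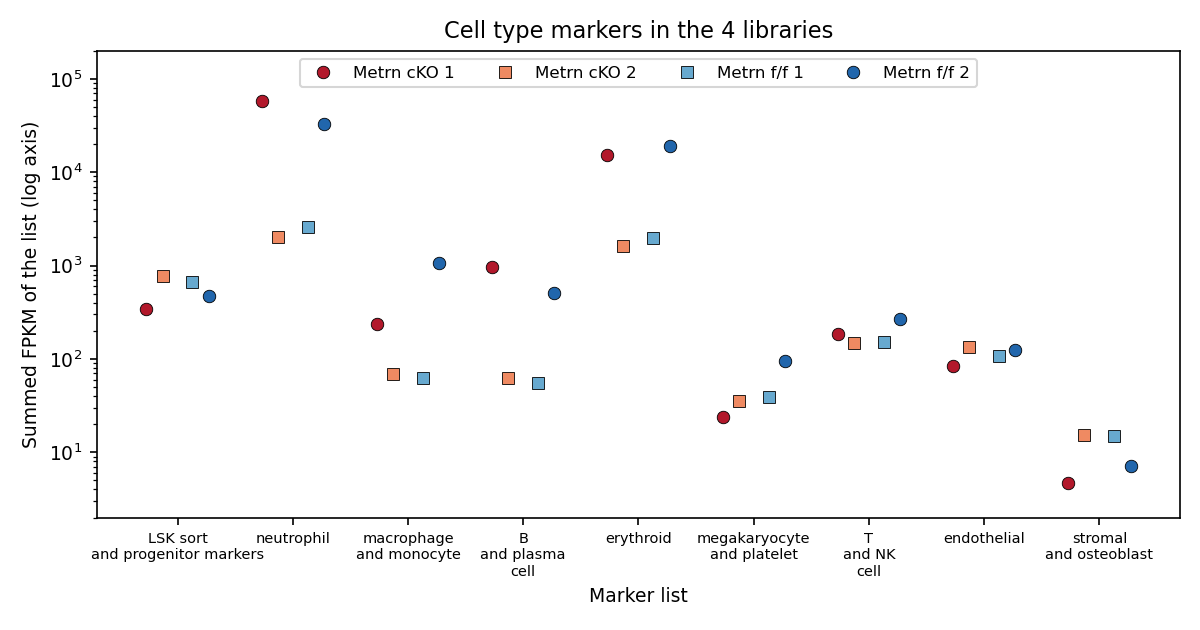
Summed FPKM of each marker list on a log axis, 1 point per library, with Metrn cKO libraries left of Metrn f/f libraries. Circles (Metrn cKO 1 and Metrn f/f 2) lie above squares (Metrn cKO 2 and Metrn f/f 1) for neutrophil, macrophage, B cell and erythroid lists, for example at 58488 and 32594 against 2009 and 2561 FPKM for neutrophil markers.

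The ligand, its receptors and the Smads did not differ between genotypes beyond the spread between mice, and they followed the split in mature cell RNA. By limma, 0 of the 10 members were higher and 0 were lower in Metrn cKO at an adjusted p of 0.05, where 0% of all tested genes passed in either direction. At an unadjusted p under 0.05 there were also 0 members, against 0.297% of all tested genes (39 genes). The smallest unadjusted p of a member was 0.206, for Smad7. In 9 of the 10 members both Metrn cKO 2 and Metrn f/f 1 lay above both Metrn cKO 1 and Metrn f/f 2, an order that 46% of all tested genes shared, while 24% had the reverse order and 0 members did. Smad7 was the exception in FPKM, but it took this order too once values were rescaled to an equal sum per library (TPM). With median scaling Tgfb1 and Smad2 left this order beside Smad7, and with quantile normalization Smad2 and Smad7 did. In FPKM, Smad2 held this order only by 5.67 FPKM in Metrn cKO 2 against 5.65 FPKM in Metrn cKO 1. The part of mature cell RNA in these levels was not tested. In such bulk samples, fewer cells of a type and less RNA per cell cannot be told apart. With 2 libraries per genotype, an exact permutation test of a single gene cannot go below a p of 0.333.

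**Figure D2:**
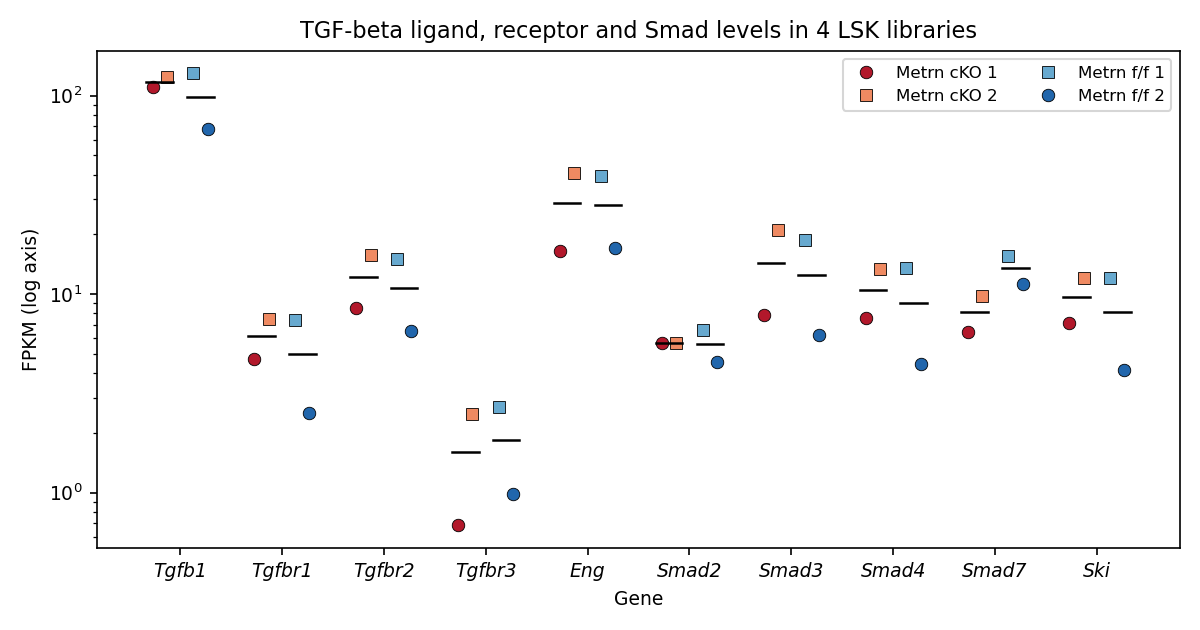
FPKM of the 10 genes on a log axis, 1 point per library, Metrn cKO left and Metrn f/f right of each tick, with a bar at each genotype's mean. Squares (Metrn cKO 2 and Metrn f/f 1) lie above circles (Metrn cKO 1 and Metrn f/f 2) in every gene but Smad7, where both Metrn cKO points (6.44 and 9.76 FPKM) lie below both Metrn f/f points (15.6 and 11.3 FPKM). For Smad2 the points of Metrn cKO 1 and 2 nearly coincide, at 5.65 and 5.67 FPKM.

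Tgfb1 (chromosome 7, positions 25687002 to 25705077 of GRCm38, the assembly of all positions here) encodes the ligand that blood cells themselves make, and it was the most abundant member. It had 110 and 125 FPKM in Metrn cKO 1 and 2, against 129 and 67.8 FPKM in Metrn f/f 1 and 2. The libraries other than Metrn f/f 2 lay close together and Metrn f/f 2 lay below them, so the groups overlapped. The mean was 117 ± 10.4 FPKM in Metrn cKO and 98.6 ± 43.5 FPKM in Metrn f/f (SD, n = 2 each), a level above that of 95.2% of tested genes. The log2 fold change was 0.32 (SE 0.47; limma, adjusted p = 1.00).

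Tgfbr2 (chromosome 9, positions 116084293 to 116175360) encodes the receptor that binds the ligand first. It had 8.49 and 15.8 FPKM in Metrn cKO 1 and 2, against 15.0 and 6.53 FPKM in Metrn f/f 1 and 2. Each genotype held 1 library near 15 FPKM and 1 well below it, and the log2 fold change was 0.20 (SE 0.58; limma, adjusted p = 1.00). Tgfbr1, the signalling type I receptor (chromosome 4, positions 47353222 to 47414931), had 4.74 and 7.52 FPKM in Metrn cKO 1 and 2, against 7.41 and 2.52 FPKM in Metrn f/f 1 and 2. Its log2 fold change of 0.36 (SE 0.63; limma, adjusted p = 1.00) was the highest of the 10. In every library Tgfbr2 lay above Tgfbr1, by ratios between 1.79 and 2.60.

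Eng (chromosome 2, positions 32646595 to 32682669) was the most abundant receptor gene of the 10. It had 16.4 and 40.9 FPKM in Metrn cKO 1 and 2, against 39.3 and 17.0 FPKM in Metrn f/f 1 and 2. The levels formed a low and a high pair with a library of each genotype in each, and the means were 28.7 ± 17.3 FPKM in Metrn cKO and 28.2 ± 15.8 FPKM in Metrn f/f (SD, n = 2 each). The log2 fold change was 0.0017 (SE 0.61; limma, adjusted p = 1.00). Exons of Fpgs on the opposite strand cover 1.51% of the exon bases of Eng, and the strand setting of the counting is not given in the sources used here. Tgfbr3, the betaglycan gene (chromosome 5, positions 107106570 to 107289629), was the lowest member, with 0.685 and 2.50 FPKM in Metrn cKO 1 and 2, against 2.71 and 0.984 FPKM in Metrn f/f 1 and 2. Its ranges overlapped too, with a log2 fold change of -0.16 (SE 0.64; limma, adjusted p = 1.00), and 10.8% of tested genes lay below it. Eng and Tgfbr3 are also genes of endothelial cells. Of 8 endothelial markers, Cdh5, the cadherin that defines these cells, had 0.783 and 0 FPKM in Metrn cKO 1 and 2 and 0.0357 and 0.246 FPKM in Metrn f/f 1 and 2, while Pecam1, which progenitors also express, had 18.1 and 31.2 FPKM in Metrn cKO 1 and 2 and 27.3 and 13.8 FPKM in Metrn f/f 1 and 2. Emcn, the endomucin gene, had 3.40 and 9.46 FPKM in Metrn cKO 1 and 2, against 8.44 and 6.57 FPKM in Metrn f/f 1 and 2. Tek, the angiopoietin receptor gene that stem cells also express, had 0.188 and 1.83 FPKM in Metrn cKO 1 and 2, against 2.45 and 0.709 FPKM in Metrn f/f 1 and 2. Of the 4 endothelial markers tested, 3 (Pecam1, Emcn and Tek) had the library order of Eng and Tgfbr3, an order shared by 46% of all tested genes. Cdh5, Kdr, Plvap and Cldn5 were not tested and did not have it. Egfl7, the most abundant of the list, had 60.8 and 90.5 FPKM in Metrn cKO 1 and 2, against 67.1 and 102 FPKM in Metrn f/f 1 and 2. The endothelial list summed to 84.7 and 134 FPKM in Metrn cKO 1 and 2, against 107 and 125 FPKM in Metrn f/f 1 and 2, and no marker of the list was at 0 in every library. The part of endothelial RNA in the levels of Eng and Tgfbr3 was not tested.

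Of the receptor-regulated Smads, Smad3 varied more than Smad2. Smad3 (chromosome 9, positions 63646767 to 63757994) had 7.84 and 21.0 FPKM in Metrn cKO 1 and 2, against 18.7 and 6.21 FPKM in Metrn f/f 1 and 2. The highest library stood 3.38 times above the lowest, and the log2 fold change was 0.22 (SE 0.69; limma, adjusted p = 1.00). Smad2 had 5.65 and 5.67 FPKM in Metrn cKO 1 and 2, against 6.63 and 4.55 FPKM in Metrn f/f 1 and 2. Both Metrn cKO libraries lay between the Metrn f/f libraries, the highest was 1.46 times the lowest, and the log2 fold change was 0.034 (SE 0.51; limma, adjusted p = 1.00). The ratio of the pair followed the split in mature cell RNA. Smad3 over Smad2 was 1.39 and 3.70 in Metrn cKO 1 and 2, against 2.83 and 1.37 in Metrn f/f 1 and 2. Multiplying all values of a library by the same factor leaves this ratio as it is, while quantile normalization can alter it.

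The promoters of the ligand gene and of 3 genes that shared the low and high pairs of libraries are shown, as the 250 bases before the RefSeq start site, written in the direction of the gene (build GRCm38.p6). Capitals mark the GC box GGGCGG and the Smad site GTCTG on either strand, motifs that do not overlap in these windows.
Tgfb1, chr7:25686752-25687001, plus strand: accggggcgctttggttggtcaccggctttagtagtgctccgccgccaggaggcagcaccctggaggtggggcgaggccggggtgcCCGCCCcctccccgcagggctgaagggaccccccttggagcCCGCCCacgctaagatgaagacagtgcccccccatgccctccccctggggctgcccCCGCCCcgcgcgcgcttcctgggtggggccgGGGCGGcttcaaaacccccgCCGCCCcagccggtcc
Tgfbr2, chr9:116175364-116175613, minus strand: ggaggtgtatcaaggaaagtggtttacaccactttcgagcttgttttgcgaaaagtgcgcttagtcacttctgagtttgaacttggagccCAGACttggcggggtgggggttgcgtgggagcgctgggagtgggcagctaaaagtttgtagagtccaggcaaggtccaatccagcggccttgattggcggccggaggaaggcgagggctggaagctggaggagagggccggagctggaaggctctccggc
Eng, chr2:32646345-32646594, plus strand: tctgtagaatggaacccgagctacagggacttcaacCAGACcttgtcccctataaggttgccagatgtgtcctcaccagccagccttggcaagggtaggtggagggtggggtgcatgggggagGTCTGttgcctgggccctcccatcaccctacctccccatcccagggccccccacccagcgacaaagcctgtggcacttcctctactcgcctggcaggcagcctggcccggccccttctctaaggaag
Smad3, chr9:63757995-63758244, minus strand: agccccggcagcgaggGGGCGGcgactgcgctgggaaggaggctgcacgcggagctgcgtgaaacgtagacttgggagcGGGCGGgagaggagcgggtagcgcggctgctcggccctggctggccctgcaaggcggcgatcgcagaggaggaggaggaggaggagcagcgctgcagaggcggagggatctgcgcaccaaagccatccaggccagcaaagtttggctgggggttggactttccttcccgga

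These windows lay outside all exons of the GENCODE annotation. The Tgfb1 window held 5 GC boxes and no Smad site, at 75.2% G and C, and that of Smad3 held 2 GC boxes and no Smad site, at 69.2%. The Eng window held no GC box and 2 Smad sites, at 62.4%, and that of Tgfbr2 held no GC box and 1 Smad site, at 58.4%. Over all 32851 promoter windows of the same length the median was 52.4% G and C, 32.7% held a GC box and 42.2% a Smad site. The full palindrome GTCTAGAC, found in 0.167% of all windows, was in none of the 4. A match of letters is a description of the window and no evidence of binding.

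Smad4, the shared partner of the receptor-regulated Smads, and Ski, the co-repressor that binds the complex, ran in parallel. Smad4 (chromosome 18, positions 73639009 to 73703780) lies on the same chromosome as Smad2 (positions 76241580 to 76310963). Smad4 had 7.62 and 13.4 FPKM in Metrn cKO 1 and 2, against 13.6 and 4.45 FPKM in Metrn f/f 1 and 2. Ski (chromosome 4, positions 155154075 to 155222592) had 7.16 and 12.1 FPKM in Metrn cKO 1 and 2, against 12.1 and 4.16 FPKM in Metrn f/f 1 and 2. Ski over Smad4 was 0.940 and 0.903 in Metrn cKO 1 and 2 and 0.889 and 0.936 in Metrn f/f 1 and 2, so the ratio varied little while each gene varied about as widely as Tgfbr1. The log2 fold changes were 0.32 (SE 0.64) for Smad4 and 0.33 (SE 0.62) for Ski, both with an adjusted p of 1.00 by limma.

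Smad7 (chromosome 18, positions 75367529 to 75395935) encodes the inhibitory Smad that TGF-beta signalling itself induces, and it was the only member in which the genotypes did not overlap. It had 6.44 and 9.76 FPKM in Metrn cKO 1 and 2, against 15.6 and 11.3 FPKM in Metrn f/f 1 and 2. Both Metrn cKO libraries lay below both Metrn f/f libraries, and the nearest were Metrn cKO 2 and Metrn f/f 2. The mean was 8.10 ± 2.35 FPKM in Metrn cKO and 13.5 ± 3.09 FPKM in Metrn f/f (SD, n = 2 each). Smad7 did not pass the test, at a log2 fold change of -0.68 (SE 0.48; limma, unadjusted p = 0.206, adjusted p = 1.00). Metrn cKO lay entirely below Metrn f/f in 1 of 10 members and in 5.73% of all tested genes, and entirely above it in 0 of 10 members and 6.31% of all tested genes, so the members' count was near the background. With values rescaled to an equal sum per library (TPM), the Smad7 groups overlapped, at 11.4 and 23.6 in Metrn cKO 1 and 2 against 39.8 and 16.8 in Metrn f/f 1 and 2. With median scaling and with quantile normalization they did not overlap.

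**Figure D3:**
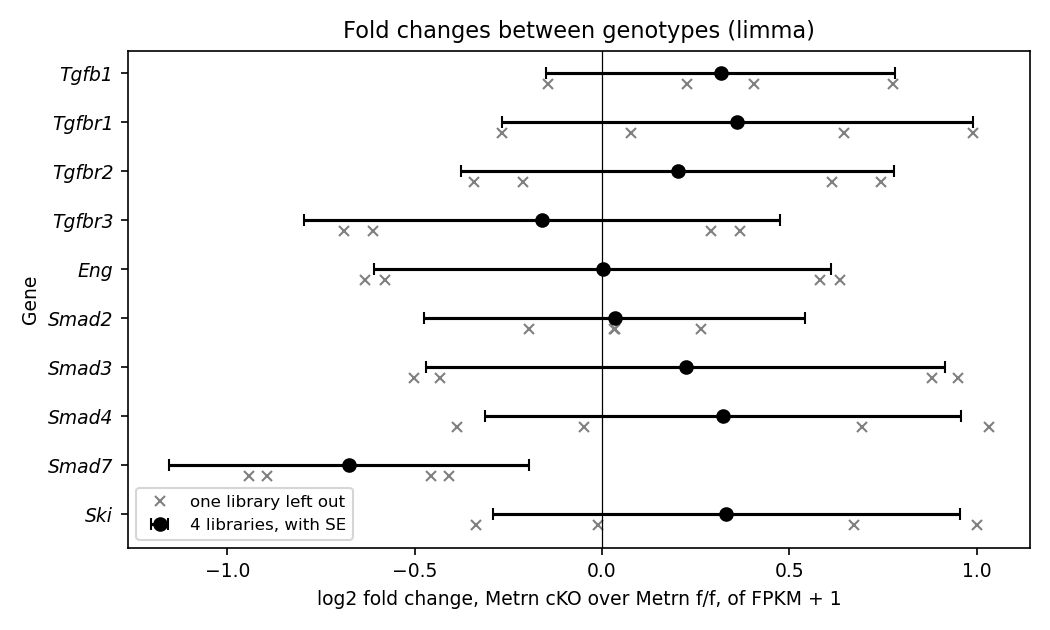
log2 fold change of FPKM + 1, Metrn cKO over Metrn f/f, with limma's standard error from 4 libraries (black) and the value with each library left out in turn (grey crosses). The crosses of Smad7 lie between -0.94 and -0.41, and those of the other 9 genes lie on both sides of 0.

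The levels were also set side by side within pairs of libraries on the same side of the split in mature cell RNA. The pair with more of it was not alike throughout, since summed macrophage and monocyte markers came to 237 FPKM in Metrn cKO 1 and 1068 FPKM in Metrn f/f 2, and B and plasma cell markers to 965 FPKM in Metrn cKO 1 and 507 FPKM in Metrn f/f 2. In the pair with less of it, Metrn cKO 2 set against Metrn f/f 1, 5 members were higher and 5 lower in Metrn cKO 2, where 57.9% of all tested genes were higher, and 0 members differed by at least 2-fold, against 0.745% of all tested genes that were at least 2-fold higher and 0.616% at least 2-fold lower. The 9 members other than Smad7 lay between -0.19 (Smad2) and 0.15 (Smad3) on the log2(FPKM + 1) scale, and Smad7 was at -0.63. In this pair 2.01% of tested genes had a lower value than Smad7. Smad7 was singled out after its values were seen. Its Metrn cKO values all lay below its Metrn f/f values, which fixed its direction here, so this share is no test. In the pair with more mature cell RNA, Metrn cKO 1 set against Metrn f/f 2, 7 members were higher and 3 lower in Metrn cKO 1, where 54.9% of all tested genes were higher. Here too 0 members differed by at least 2-fold, against 7.09% of all tested genes that were at least 2-fold higher and 6.33% at least 2-fold lower. Tgfb1, Tgfbr1, Smad4 and Ski were higher by 0.69, 0.71, 0.66 and 0.66 on the log2 scale in Metrn cKO 1. Eng and Tgfbr3 were at -0.052 and -0.24, and Smad7 was at -0.72, with 13.3% of tested genes below it. These differences rest on 1 library per genotype and have no test.

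Libraries of the same genotype were compared in the same way. In Metrn cKO 1 all 10 members lay below Metrn cKO 2, with a median log2 difference of -0.71, where 35.3% of all tested genes were higher in Metrn cKO 1 and the median of all tested genes was -0.24. Smad2 was nearly level in this pair, at -0.0037. In Metrn f/f 2 all 10 lay below Metrn f/f 1, with a median of -1.12 against -0.23 over all tested genes, of which 42.3% were higher in Metrn f/f 2. At least 2-fold lower were 3 members in Metrn cKO 1 against Metrn cKO 2 (12.4% of all tested genes) and 6 members in Metrn f/f 2 against Metrn f/f 1 (21.9% of all tested genes). Smad3 showed the widest difference of the 10 in both genotypes, at -1.31 and -1.45.

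**Figure D4:**
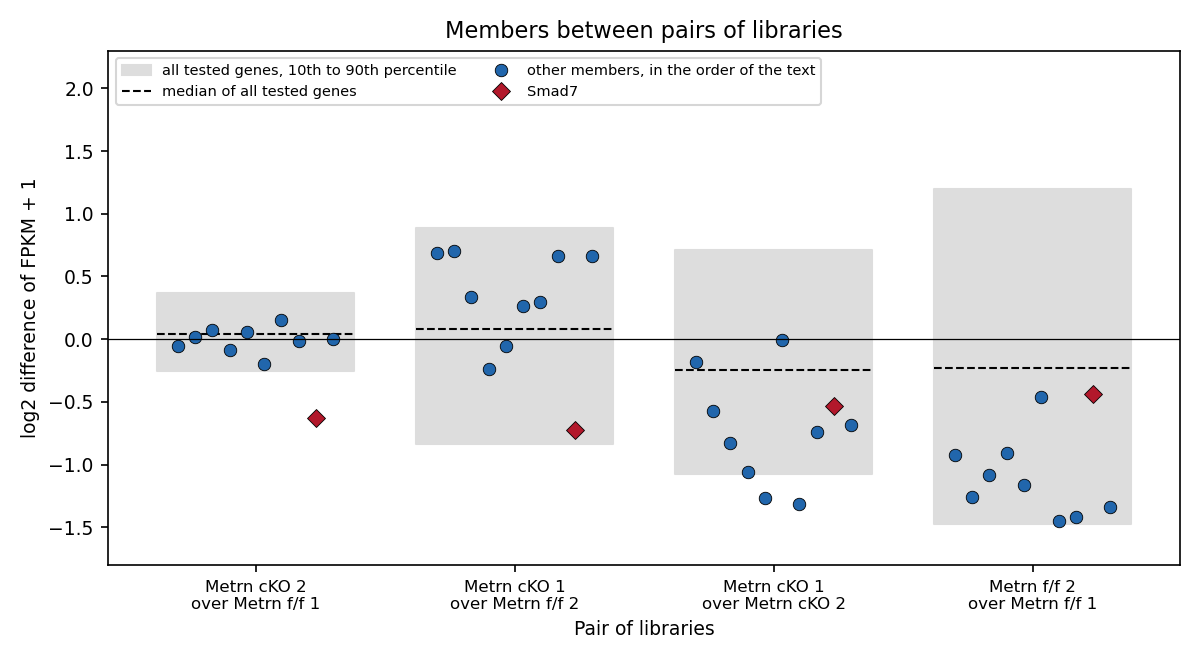
log2 difference of FPKM + 1 between pairs of libraries for the 10 genes, Smad7 as a red diamond and the others as blue circles from Tgfb1 on the left to Ski on the right, over the 10th to 90th percentile (grey) and the median (dashed) of 13148 tested genes. Smad7 is at -0.63 and -0.72 in the pairs of unlike genotype, and all 10 genes lie below 0 in the pairs of like genotype. Smad2 is nearly at 0 in Metrn cKO 1 over Metrn cKO 2, at -0.0037.

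By level over the 4 libraries the order was Tgfb1, Eng, Smad3, Tgfbr2, Smad7, Smad4, Ski, Smad2, Tgfbr1 and Tgfbr3. Tgfb1 lay above Eng, Eng above Smad3, Smad4 above Ski and Tgfbr1 above Tgfbr3 in 4 of 4 libraries. Smad3 lay above Tgfbr2, and Tgfbr1 above Smad2, only in Metrn cKO 2 and Metrn f/f 1. Smad7 lay above Tgfbr2 and above Smad4 only in Metrn f/f 1 and 2. Each of these neighbours thus changed places in 2 of 4 libraries, along the split in mature cell RNA or with genotype. Ski lay above Smad2 in 3. The order of these neighbours was therefore not the same in every library, and differences between them were not tested. Smad7 was set against the other members as well, a comparison chosen after its values were seen. Smad7 over Smad4 was 0.845 and 0.729 in Metrn cKO 1 and 2, against 1.15 and 2.53 in Metrn f/f 1 and 2. Relative to the mean log2 level of the 10 members in the same library, Smad7 stood at -0.34 and -0.52 in Metrn cKO 1 and 2, against 0.038 and 0.64 in Metrn f/f 1 and 2. On that scale 2 members (Smad7 and Tgfbr3) had Metrn cKO entirely below Metrn f/f and 4 (Tgfbr1, Tgfbr2, Smad4 and Ski) entirely above, where all tested genes gave 2.47% below and 8.65% above. The members set this scale themselves, and nothing is read from these counts.

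Genes with the most similar pattern were found as those at the smallest distance between mean-centred log2(FPKM + 1) values over the 4 libraries, among tested genes with a mean of at least 4 FPKM. Genes with predicted or clone names, pseudogenes, microRNAs and small nucleolar RNAs were left out beforehand, which left 8915 candidates. Hnrnpd and Tbkbp1 lay nearest to Tgfb1, Fam160b2 and Tyk2 to Tgfbr1, Ipo11 and Fem1b to Tgfbr2, and TrnG and Clcf1 to Tgfbr3. Ankrd13b and Camk2a lay nearest to Eng, Slc4a1ap and Fubp1 to Smad2, Cand2 and Tfdp2 to Smad3, Zfp715 and Ampd2 to Smad4, and Plekhg5 and Mbtps1 to Ski. The distances of these genes lay between 0.0136 and 0.0643. Smad7 had the farthest neighbours, Erdr1-2 at 0.0856 and Myl6b at 0.128. Among the members themselves, Smad4 and Ski were the closest, at 0.0706, and the member nearest to Smad7 was Tgfbr3, at 0.714. These distances describe 4 libraries and carry no test.

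The wider pathway was compared through 7 further lists, none with a gene that passed the test by limma in either direction, and only Thbs1 had an unadjusted p under 0.05. The median log2 fold change over all tested genes was 0.067, and that of the 10 members was 0.21. The members' median turned with the library left out: it was -0.13 without Metrn cKO 2 and -0.36 without Metrn f/f 2, but 0.63 without Metrn cKO 1 and 0.76 without Metrn f/f 1. Among 15 other ligand genes of the family, 14 did not reach 1 FPKM in 2 libraries. Of these, Gdf15 had 23.8 FPKM in Metrn f/f 2 and Inhba 2.70 FPKM in Metrn cKO 1, and both were under 1 FPKM elsewhere. Tgfb2 had 0 and 0.0817 FPKM in Metrn cKO 1 and 2, against 0 and 0 FPKM in Metrn f/f 1 and 2, and Tgfb3 had 0.148 and 0 FPKM in Metrn cKO 1 and 2, against 0.142 and 0.164 FPKM in Metrn f/f 1 and 2. Of Tgfb1, Tgfb2 and Tgfb3, only Tgfb1 was thus detected above 1 FPKM. Inha, the inhibin alpha subunit, was the tested ligand gene, with 0.497 and 1.58 FPKM in Metrn cKO 1 and 2 and 3.24 and 0.920 FPKM in Metrn f/f 1 and 2.

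Latent TGF-beta is tethered to cells or matrix and freed by integrins and proteases. Of 17 such genes 10 were tested, Metrn cKO lay entirely above Metrn f/f in 0 and entirely below in 3 (Nrros, Itgb5 and Thbs1), where 6.31% and 5.73% of all tested genes did so, and the list median was -0.036. Nrros, which tethers latent TGF-beta on myeloid cells, was the most abundant and the most even, with 77.6 and 73.7 FPKM in Metrn cKO 1 and 2, against 86.3 and 82.5 FPKM in Metrn f/f 1 and 2. Thbs1, thrombospondin, an activator of latent TGF-beta made by megakaryocytes and monocytes, had 0.680 and 1.58 FPKM in Metrn cKO 1 and 2, against 3.97 and 7.99 FPKM in Metrn f/f 1 and 2 (log2 fold change -1.68, SE 0.59; limma, unadjusted p = 0.0269, adjusted p = 1.00). Summed megakaryocyte and platelet markers had the same library order. They came to 23.8 and 35.4 FPKM in Metrn cKO 1 and 2, against 38.8 and 95.6 FPKM in Metrn f/f 1 and 2. Of these, Pf4 had 10.6 and 5.65 FPKM in Metrn cKO 1 and 2, against 10.4 and 63.1 FPKM in Metrn f/f 1 and 2. Its groups overlapped, and the part of megakaryocyte RNA in the level of Thbs1 was not tested. The integrin beta chain gene Itgb1 had 33.3 and 49.9 FPKM in Metrn cKO 1 and 2, against 50.4 and 27.6 FPKM in Metrn f/f 1 and 2, and followed the split of the receptors.

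Of 11 receptor genes for activins and bone morphogenetic proteins (BMPs) 7 were tested, with a list median of -0.0097. Acvr1b, an activin type I receptor that also acts through SMAD2 and SMAD3, was the most abundant, with 7.19 and 19.4 FPKM in Metrn cKO 1 and 2, against 19.4 and 7.31 FPKM in Metrn f/f 1 and 2, so that each genotype had 1 high and 1 low library. Acvrl1 had 3.38 and 0.896 FPKM in Metrn cKO 1 and 2, against 2.03 and 4.99 FPKM in Metrn f/f 1 and 2, the reverse order. Bambi, a decoy receptor, had 0.878 and 1.30 FPKM in Metrn cKO 1 and 2, against 2.12 and 4.39 FPKM in Metrn f/f 1 and 2. It was the 1 gene of this list with Metrn cKO entirely below Metrn f/f, against 5.73% of all tested genes, and 0 were entirely above, against 6.31%. The BMP branch Smads Smad1 and Smad5 followed the split of Smad3: Smad5 had 5.22 and 14.2 FPKM in Metrn cKO 1 and 2, against 13.7 and 3.47 FPKM in Metrn f/f 1 and 2, and Smad1 had 5.28 and 10.2 FPKM in Metrn cKO 1 and 2, against 10.7 and 4.06 FPKM in Metrn f/f 1 and 2. Of the 4 genes of that list, Smad9 was listed at 0 in all libraries and the groups of the 3 tested genes overlapped, with a median of 0.12.

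Among Smad co-repressors, partners and ubiquitin ligases, 16 of 19 genes were tested, with a median of 0.28. Strap, a receptor-binding adaptor, had 51.2 and 50.0 FPKM in Metrn cKO 1 and 2, against 53.5 and 64.3 FPKM in Metrn f/f 1 and 2, and was the 1 gene of the list with Metrn cKO entirely below, against 5.73% of all tested genes, while 0 were entirely above, against 6.31%. Tgif1, a co-repressor, had 13.4 and 30.1 FPKM in Metrn cKO 1 and 2, against 23.6 and 25.6 FPKM in Metrn f/f 1 and 2. All 10 genes of non-Smad signalling were tested, with a median of 0.26, 1 gene (Shc1) with Metrn cKO entirely above and 0 entirely below, beside the same shares of all tested genes. Rhoa, a small GTPase, had 179 and 123 FPKM in Metrn cKO 1 and 2, against 116 and 158 FPKM in Metrn f/f 1 and 2. Mapk14, the p38 kinase, had 64.1 and 76.2 FPKM in Metrn cKO 1 and 2, against 83.1 and 43.8 FPKM in Metrn f/f 1 and 2.

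Genes listed here as induced by TGF-beta had a median log2 fold change of -0.28 over 19 tested of 24. Whether TGF-beta induces each of them in LSK cells was not tested, so the median is no measure of TGF-beta signalling. This median was -0.64 without Metrn cKO 1, -0.51 without Metrn cKO 2, -1.23 without Metrn f/f 1 and -0.22 without Metrn f/f 2. It was -0.57 with the filter at 5 FPKM and -0.10 with no filter. Metrn cKO lay entirely below Metrn f/f in 6 of them (Smad7, Cdkn1a, Tsc22d1, Tsc22d3, Rgs2 and Junb) and entirely above in 0, where 5.73% and 6.31% of all tested genes did so. The list was chosen with earlier results of these data known, so this count is no test. The 6 genes also respond to other stimuli, and Junb is an immediate early gene. Junb had 99.5 and 122 FPKM in Metrn cKO 1 and 2, against 178 and 636 FPKM in Metrn f/f 1 and 2 (log2 fold change -1.60, SE 0.67; limma, unadjusted p = 0.0514, adjusted p = 1.00). Tsc22d1 had 58.4 and 99.9 FPKM in Metrn cKO 1 and 2, against 107 and 228 FPKM in Metrn f/f 1 and 2. Metrn f/f 2 was the highest library for Cdkn1a, Tsc22d1, Tsc22d3, Rgs2 and Junb, while for Smad7 it was Metrn f/f 1. Id1, Id2 and Id3, inhibitors of helix-loop-helix factors, were high in the libraries with more mature cell RNA, for example Id2 with 63.7 and 10.6 FPKM in Metrn cKO 1 and 2, against 10.7 and 63.4 FPKM in Metrn f/f 1 and 2. Id1, Id2 and Id3 were named after their values were seen.

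**Figure D5:**
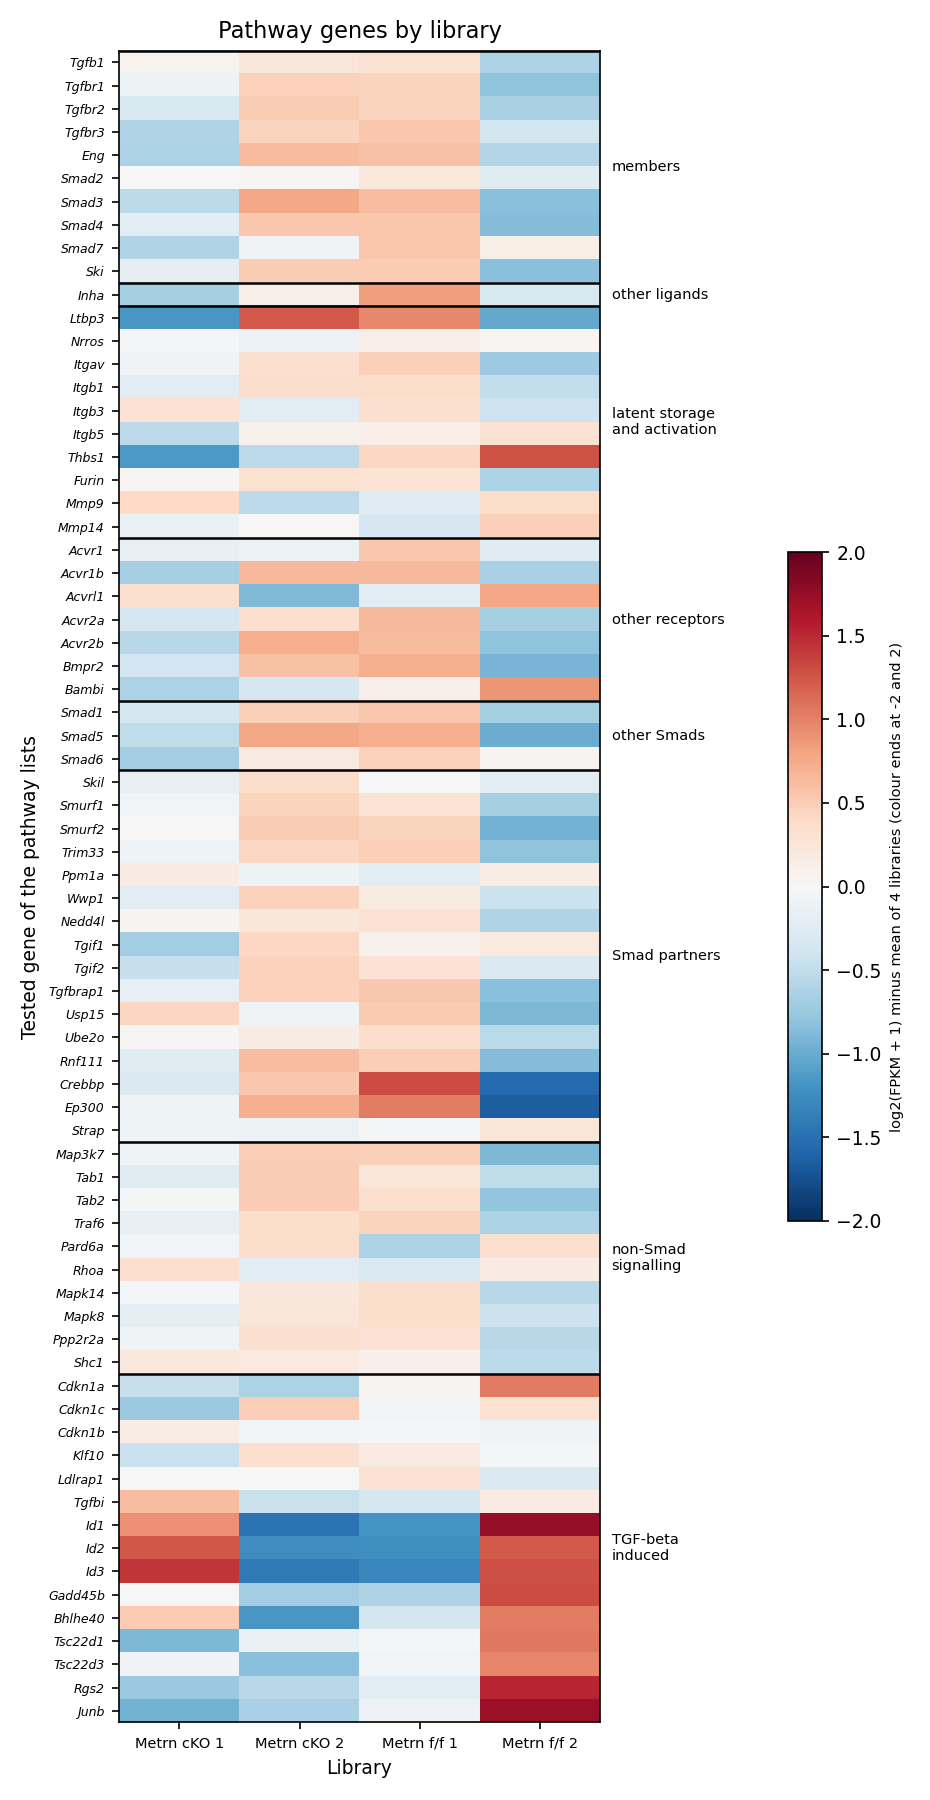
Tested genes of the pathway lists (rows) in the 4 libraries (columns), coloured by log2(FPKM + 1) minus the gene's mean, red for above and blue for below, with a gene of several lists shown once. Tgfbr1, Tgfbr2, Eng, Smad3 and Smad4 are red in Metrn cKO 2 and Metrn f/f 1, Id1, Id2 and Id3 are red in Metrn cKO 1 and Metrn f/f 2, and Junb and Rgs2 are red in Metrn f/f 2.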

How the data were processed

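Poly(A) selection or depletion is not given in the sources used here; per the labels' protocols, total RNA of sorted cells was treated with DNase I and made into standard Illumina libraries. Build mm10 and the tools featureCounts 1.6.4, HISAT2 2.1, DESeq2 2.11.40.6, cutadapt 1.16.5 and bcl2fastq 2.19 stand in the submitters' processing notes, without roles. The authors deposited 1 table per library, and the values as deposited by the authors were taken as FPKM, a unit inferred from their decimals and unequal sums since the headers name none. FPKM are shares, so abundant transcripts of a library can lower the values of others. How far this bears on the members was not tested.

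Genes that reached 1 FPKM in 2 or more libraries were tested by limma 3.58.1 in R 4.3.3 on log2(FPKM + 1) with an intensity trend, 2-sided, and p-values were adjusted by Benjamini-Hochberg over these 13148 genes. Fold changes are on that scale and understate changes of low genes. Members and lists were chosen with earlier results of these data known. Named genes are the members, the 2 most abundant tested genes of each list and the 2 nearest patterns of each member. Genes named beside a count of 6 or fewer were picked once their values were known. The limma fit did not pair mice by replicate number. Gene exons are those of GENCODE M21 (GRCm38), and promoters those of RefSeq, found for 6 members. Smad2, Smad4, Smad7 and Tgfbr3 promoters were not used here.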

Additional observations from a re-analysis of the deposited data

How the results depend on the processing

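None of the 10 members passed in any of the fits run, the crossed pairing included (Smad7 there: limma, adjusted p = 1.00). Over all genes, 5 passed without Metrn cKO 1, 34 without Metrn cKO 2, and between 0 and 34 over the 4 fits with a library left out; 0 passed with other pseudocounts, filters and scalings and without the intensity trend. Same-numbered libraries deviated against each other (correlation -0.708 over 13148 genes). The sign of this correlation depends on how libraries are numbered within a genotype, so it cannot show whether mice were paired. With the replicate block 4 genes passed, and with the crossed pairing, chosen after seeing the data, 102. Median scaling moved the median of all genes to -0.044, against 0.067 as deposited, and turned Eng to -0.11 and Smad2 to -0.077; quantile normalization gave Eng -0.022 and Smad2 -0.098. Groups did not overlap in 829 genes above and 754 below in FPKM, 431 and 752 in TPM, 610 and 1006 with median scaling and 746 and 957 with quantile normalization.

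With each library left out in turn, the log2 fold change lay between -0.14 and 0.78 for Tgfb1, -0.27 and 0.99 for Tgfbr1, -0.34 and 0.75 for Tgfbr2, -0.69 and 0.37 for Tgfbr3, -0.63 and 0.64 for Eng, -0.20 and 0.26 for Smad2, -0.50 and 0.95 for Smad3, -0.39 and 1.03 for Smad4, and -0.34 and 1.00 for Ski. That of Smad7 kept its direction, between -0.94 without Metrn cKO 2 and -0.41 without Metrn cKO 1. List medians turned likewise, between -0.36 and 0.76 for the members, -1.11 and 0.034 for other ligands, -0.29 and 0.16 for latent TGF-beta genes, -0.63 and 0.64 for other receptors, -0.60 and 0.73 for other Smads, -0.24 and 0.81 for Smad co-repressors and partners, and -0.14 and 0.67 for non-Smad signalling. The median of the genes listed as induced stayed below 0, between -1.23 and -0.22. The cause was not tested. Tgfbr3 was not tested with the filter at 5 FPKM. Read depth is unknown, so the counting error of low genes such as Tgfbr3 is not given.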
